A study of Mus musculus with 2 samples.

Results

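The Hox genes were described in ureters of mouse embryos at E18.5 that lacked Pparg function in the ureteric epithelium and in ureters of control littermates. The members are all genes of the array whose symbol places them in 1 of the 4 Hox clusters with a paralogue number, 39 of 29923 genes. They comprise 11 Hoxa, 10 Hoxb, 9 Hoxc and 9 Hoxd genes, and the paralogue numbers run from 1 to 13. The rule for members uses symbols and no measured value, though earlier results of these data were known when it was set. All embryos were of the NMRI strain. Pparg-cKO pools had the genotype Pax2-cre/+; Pparg(fl/fl), and control pools had the genotype Pparg(fl/?), in which the labels leave the other allele open; per the study's methods these were littermates without cre. The Pax2-cre line is active in the nephric duct and its derivatives, the ureteric epithelium and the collecting ducts, so the mesenchyme, smooth muscle, vessels and nerves of the same ureters kept their Pparg alleles. Replicate 1 set a female Pparg-cKO pool against a female control pool on 1 array, and replicate 2 did the same with male pools and with the dyes exchanged. Each array thus holds 2 pools of several embryos, there are 4 pools in all, and sex, dye orientation and array cannot be told apart.

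Hox genes encode transcription factors that bind DNA through a homeodomain and give cells their position along the body axis. In each cluster the genes lie in the order of their paralogue numbers, with low numbers used anteriorly and high numbers posteriorly, and genes of the same number in different clusters are paralogues that descend from a common ancestor. The group 10 and 11 paralogues are known for their roles in kidney formation and the group 13 paralogues for the terminal parts of the hindgut, urogenital tract and limb, while Hoxb7 is known as a gene of the nephric duct and ureteric epithelium whose promoter drives widely used Cre lines.

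A pair of probes show which parts of Hox transcripts some of the measurements rest on, and they are printed because their letters include 2 conserved stretches of the family. In the Hoxc11 probe at chr15:102787022-102787081, on the plus strand of mm9, capitals mark TGGTTNCAG, letters that occur in the recognition helix of many homeodomains. In the Hoxa6 probe at chr6:52158194-52158253, on the minus strand, capitals mark CCNTGGATG, letters of the short motif upstream of the homeodomain through which many Hox proteins contact Pbx partners.
Hoxc11 probe: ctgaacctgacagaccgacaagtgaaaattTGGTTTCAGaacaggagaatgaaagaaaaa
Hoxa6 probe: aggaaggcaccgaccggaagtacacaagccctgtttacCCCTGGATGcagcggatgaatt
On the printed strand, TGGTTNCAG was found in 2 of the 45 Hox probes and in 0.152% of all 39429 probes, and CCNTGGATG in 1 Hox probe and in 0.122% of all probes. The other Hox probe sequences were not divided into coding and untranslated parts here.

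The 3 Hox genes with the highest log2 ratios on the male array, Hoxd3, Hoxb8 and Hoxd4, all have an entry in the RefSeq promoter table for assembly GRCm38.p6, which holds 22 of the 39 Hox genes. The 250 bases before their annotated starts are printed for that reason. The intervals are chr2:74711743-74711992 for Hoxd3, chr2:74721728-74721977 for Hoxd4 and chr11:96281655-96281904 for Hoxb8, all on the plus strand. Capitals mark the nuclear receptor motif AGGTCA and the Hox and Pbx letters TGATNNAT on either strand.
Hoxd3 promoter: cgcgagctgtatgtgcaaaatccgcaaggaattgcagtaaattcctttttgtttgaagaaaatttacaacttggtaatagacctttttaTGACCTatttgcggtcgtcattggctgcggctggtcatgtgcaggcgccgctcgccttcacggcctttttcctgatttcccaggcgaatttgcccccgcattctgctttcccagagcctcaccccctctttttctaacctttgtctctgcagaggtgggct
Hoxd4 promoter: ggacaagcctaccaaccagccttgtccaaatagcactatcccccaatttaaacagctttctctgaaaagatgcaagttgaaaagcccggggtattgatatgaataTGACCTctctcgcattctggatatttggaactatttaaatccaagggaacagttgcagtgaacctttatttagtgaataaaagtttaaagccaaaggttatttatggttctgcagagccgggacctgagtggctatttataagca
Hoxb8 promoter: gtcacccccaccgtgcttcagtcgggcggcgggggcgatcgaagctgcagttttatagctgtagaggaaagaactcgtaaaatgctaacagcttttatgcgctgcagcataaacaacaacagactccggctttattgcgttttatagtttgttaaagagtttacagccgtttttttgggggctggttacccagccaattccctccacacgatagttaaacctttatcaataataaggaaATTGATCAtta
AGGTCA was found once in the Hoxd3 and once in the Hoxd4 window, in 6 of the 22 Hox genes with an entry and in 14.0% of all 32851 windows of this length. TGATNNAT was found once in the Hoxb8 window, in 4 of the 22 Hox genes and in 7.68% of all windows. The direct repeat AGGTCANAGGTCA, the letters that PPARG with its RXR partner can bind, was found in 0 of the 22 Hox genes and in 0.0335% of all windows, and it contains AGGTCA at both ends. A Hox gene was counted when any of its windows held the match, whereas the percentages count single windows, so the units differ. A match is a run of letters only, and binding was not measured.

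The ureters expressed most Hox genes. A gene was counted as expressed in a pool when most spots of any of its probes were well above background there, and 32 of the 39 members met this in all 4 pools, against 64.0% of all genes. The Hoxa cluster was complete, with 11 of 11 genes above background in every pool, followed by 8 of 9 Hoxd, 8 of 10 Hoxb and 5 of 9 Hoxc genes. By paralogue number, 6 of 8 genes of groups 1 to 3, 13 of 15 of groups 4 to 8 and 13 of 16 of groups 9 to 13 were above background in all pools. Hoxb13 and Hoxc12 were not well above background in any pool.

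Another 5 members were above background in some pools only. The processed signal, in arbitrary units of the scanner software, of Hoxb1 was 4.03 in the female Pparg-cKO pool, 2.23 in the female control pool, 3.85 in the male Pparg-cKO pool and 1.87 in the male control pool, and only the male Pparg-cKO value was well above background. The same held for Hoxd1, with 3.54 and 1.84 in the female and 5.61 and 1.91 in the male pools, and for Hoxc13, with 2.29 and 1.26 in the female and 3.44 and 1.95 in the male pools, Pparg-cKO first. These 3 genes lie at opposite ends of their clusters and share signals near the detection limit. Hoxc5 gave 5.84 in the female Pparg-cKO pool, 7.69 in the female control, 8.84 in the male Pparg-cKO and 4.67 in the male control pool, and only the second and the third of these values were above background. Hoxc8 gave 11.4, 10.3, 10.6 and 9.15 in the same order, and only the last was not above background. The channel that held the female control and the male Pparg-cKO pools was more sensitive on both arrays, with 76.8% and 77.3% of spots well above background against 66.2% and 67.6% in the other channel, and the part of this in the detection pattern of the 5 genes was not tested.

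Signs need a word before any ratio is given. Going by the dyes named in the labels, red held the control pool on the female array and the Pparg-cKO pool on the male array, whereas the authors' table of values, titled Pparg-cKO against control, runs the opposite way on both arrays. The direction of that table, which is also the study's, is used for every pool named and every sign. If the dye labels hold, each Pparg-cKO value is a control value and the words higher and lower are exchanged, while sizes, totals and p-values stay. Krt20, a keratin of superficial urothelial cells, had log2 ratios of -3.14 in female and -3.03 in male pools in this direction. Pparg itself gave processed signals of 12400 and 12900 in the Pparg-cKO pools against 6110 and 6690 in the control pools, a mean log2 ratio of 0.97 ± 0.02 (SD, n = 2). The floxed exons are the second and the third, the exon under the Pparg probe was not determined here, and its signal therefore checks neither the deletion nor the labels.

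No Hox gene passed the thresholds for a change in Pparg-cKO ureters. A total of 34 members were bright enough on both arrays to be tested, and Hoxb1, Hoxb13, Hoxc12, Hoxc13 and Hoxd1 were not. With limma over all 22111 genes tested, 0 Hox genes had a Benjamini-Hochberg adjusted p under 0.05, against 0.796% of all genes, and the lowest adjusted p among them was 0.166, for Hoxb9. At an unadjusted p under 0.05 limma listed 6 Hox genes, namely Hoxb5, Hoxb7, Hoxb9, Hoxd3, Hoxd8 and Hoxd9, against 8.54% of all genes, and all 6 were higher in Pparg-cKO pools, against 4.32% of all genes listed as higher. The fold rule, which asks for at least 1.5-fold in the same direction on each array and at least 100 signal units in the brighter pool of each, held for 0 Hox genes and for 1.17% of all genes. Among the 34 tested members, 24 were bright enough for that rule.

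Even so the ratios of the Hox genes leaned upwards, mainly on the male array. The median log2 ratio of the 34 members was 0.12, against 0.01 over all genes tested. On the male array it was 0.29 and on the female array 0.02, against 0.01 and -0.01 over all genes. Of the 34 members, 16 were higher in the Pparg-cKO pool on both arrays, against 26.6% of all genes, and 5 were lower on both, against 26.2% of all genes. The other 13 had opposite signs, against 10433 of all 22111 genes tested. Past 1.5-fold with sufficient signal, 8 members were higher on the male array alone, against 4.36% of all genes, and 1 was higher on the female array alone, against 0.791% of all genes. No member was lower by 1.5-fold on either array. Each sex is represented by 1 array, so the difference between them has no replicate and was not tested.

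**Figure D1:**
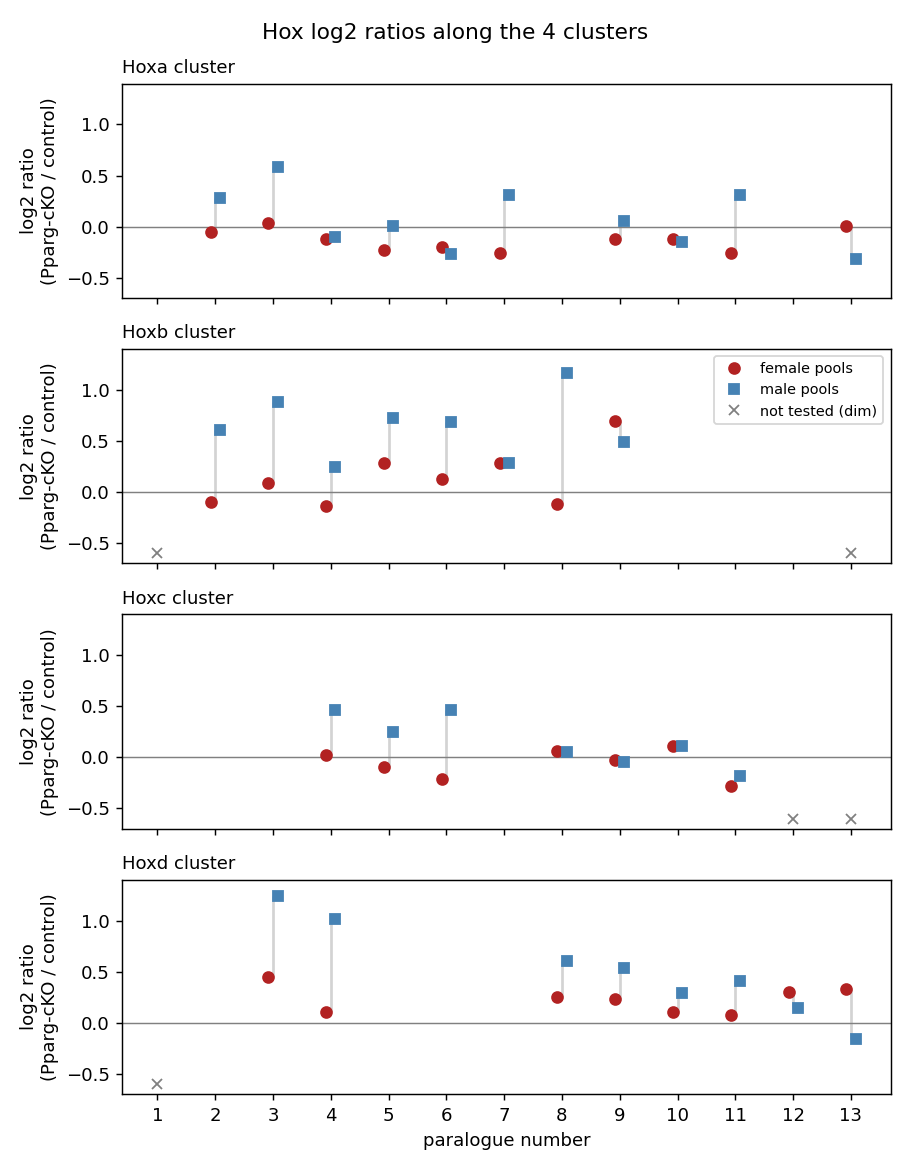
Log2 ratio of Pparg-cKO over control (vertical axis) by paralogue number (horizontal axis) in each Hox cluster, with circles for the female pools, squares for the male pools, a grey line between the 2 arrays and crosses for genes too dim to test; 1 tested Hoxa gene is not drawn. Male ratios of the Hoxb genes lie between 0.24 and 1.17 and those of the Hoxa genes between -0.32 and 0.58.

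The clusters differed in where their members lay. In the Hoxd cluster 7 of 8 tested genes were higher on both arrays and 0 lower on both, with a median log2 ratio of 0.31. In the Hoxb cluster 5 of 8 were higher on both and 0 lower on both, with a median of 0.45. In the Hoxc cluster 3 of 7 were higher and 2 lower on both, with a median of 0.08, and in the Hoxa cluster 1 of 11 was higher and 3 were lower on both, with a median of -0.03. Of the 8 tested Hoxb genes, 8 were higher in male pools and 5 in female pools, and of the 8 tested Hoxd genes, 7 and 8. Over all genes tested these shares were 52.1% and 48.3%. Genes of 1 cluster lie side by side and are not independent of each other, and the difference between clusters was not tested.

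Hoxd3, an anterior gene of its cluster, had the highest mean log2 ratio of the family. The processed signal of its probe, at chr2:74585787-74585846 of mm9, was 805 in the female Pparg-cKO pool, 594 in the female control pool, 1370 in the male Pparg-cKO pool and 589 in the male control pool. Both Pparg-cKO pools were above both control pools, and the control pools were nearly alike. Its log2 ratios were 0.45 in female and 1.24 in male pools, mean 0.84 ± 0.56 (SD, n = 2), 1.80-fold. Its adjusted p in limma was 0.282, and background correction without an offset gave 0.0343, the only setting that brought a Hox gene past the limma threshold.

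Hoxd4, its neighbour in the cluster, was measured at chr2:74566866-74566925 with 1350 in the female Pparg-cKO, 1270 in the female control, 2420 in the male Pparg-cKO and 1200 in the male control pool. The male Pparg-cKO pool stood apart and the other 3 lay close together. The log2 ratio was 0.11 and 1.02, mean 0.56 ± 0.64 (SD, n = 2, limma adjusted p = 0.596). Hoxd8, a central gene measured at chr2:74545171-74545230, gave 1360 and 1170 in the female and 1750 and 1190 in the male pools, Pparg-cKO first. Both Pparg-cKO pools were again above both controls, with a log2 ratio of 0.25 and 0.60, mean 0.42 ± 0.25 (SD, n = 2, limma adjusted p = 0.442). Hoxd9, a posterior gene at chr2:74537676-74537735, was similar in pattern, with 310 and 265 in the female and 392 and 273 in the male pools and a mean log2 ratio of 0.38 ± 0.22 (SD, n = 2, limma adjusted p = 0.476).

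The remaining posterior Hoxd genes had smaller ratios. Hoxd10 and Hoxd11, which act in limb and kidney patterning, had mean log2 ratios of 0.20 and 0.25, and Hoxd12 of 0.22, all with both arrays on the same side. A second Hoxd11 probe had a mean of 0.09. Hoxd13, the most posterior gene of the cluster, gave 100 and 75.2 in the female and 79.3 and 94.1 in the male pools, Pparg-cKO first. The log2 ratios were 0.33 in female and -0.16 in male pools, the reverse of the order of the arrays seen for Hoxd3, Hoxd4, Hoxd8 and Hoxd9.

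**Figure D2:**
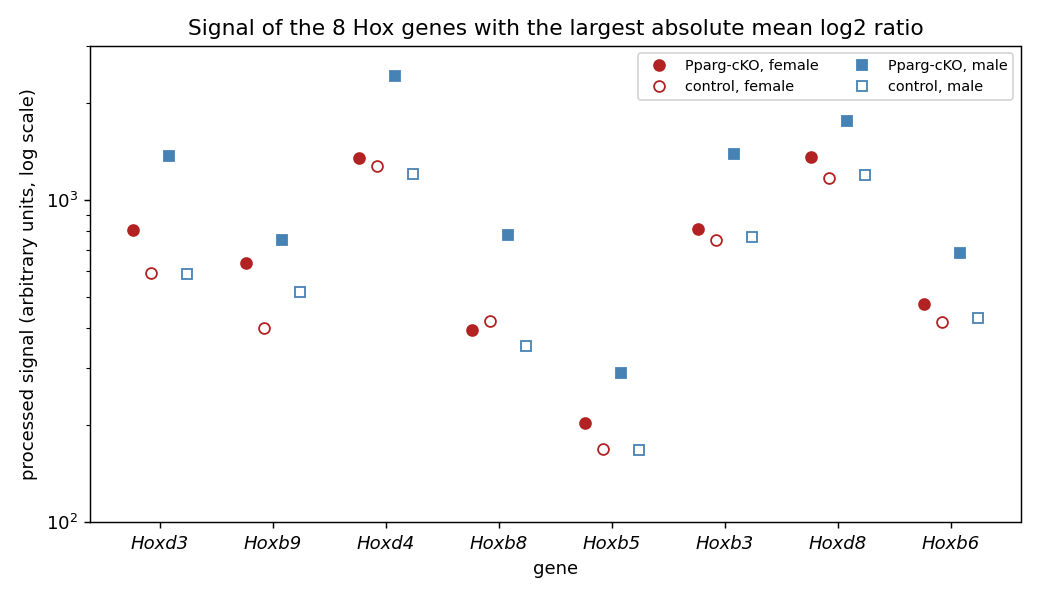
Processed signal (vertical axis, arbitrary units, log scale) of the 8 Hox genes with the largest absolute mean log2 ratio (horizontal axis) in each of the 4 pools, with filled symbols for Pparg-cKO, open symbols for control, circles for female and squares for male pools. The male Pparg-cKO pool is the highest of the 4 for each of the 8 genes, but signals were not normalised between the arrays, and levels of different genes are not comparable.

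In the Hoxb cluster, Hoxb9 came closest to a change on both arrays. Its probe at chr11:96137748-96137807 gave 635 in the female Pparg-cKO, 401 in the female control, 748 in the male Pparg-cKO and 518 in the male control pool. Both Pparg-cKO pools were above both control pools. The log2 ratio was 0.70 and 0.49, mean 0.59 ± 0.14 (SD, n = 2, limma adjusted p = 0.166), which is 1.62-fold in female and 1.41-fold in male pools, so the male array kept it from the fold rule. It was the only member past 1.5-fold on the female array.

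Hoxb8 showed the widest gap between the arrays. At chr11:96146576-96146635 it gave 395 in the female Pparg-cKO and 420 in the female control pool, but 778 in the male Pparg-cKO and 353 in the male control pool. The 2 female pools and the male control pool were close to each other and the male Pparg-cKO pool alone was high. The log2 ratio was -0.12 and 1.17, mean 0.52 ± 0.91 (SD, n = 2, limma adjusted p = 0.737). Without the male array its log2 ratio was thus -0.12.

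Hoxb3, Hoxb5 and Hoxb6 lay between these extremes. Hoxb3, measured at chr11:96209002-96209061, gave 814 and 752 in the female and 1390 and 767 in the male pools, Pparg-cKO first, a log2 ratio of 0.09 and 0.88 and a mean of 0.48 ± 0.56 (SD, n = 2, limma adjusted p = 0.628). A second, dimmer Hoxb3 probe had log2 ratios of 0.26 and 0.52, higher on both arrays but under 1.5-fold on the male array.
Hoxb5, at chr11:96167130-96167189, gave 203 and 169 in the female and 291 and 168 in the male pools, with log2 ratios of 0.28 and 0.72 and a mean of 0.50 ± 0.31 (SD, n = 2, limma adjusted p = 0.383). Hoxb6, at chr11:96162563-96162622, gave 476 and 418 in the female and 684 and 430 in the male pools, with log2 ratios of 0.13 and 0.69 and a mean of 0.41 ± 0.40 (SD, n = 2, limma adjusted p = 0.587). For both genes each Pparg-cKO pool exceeded both control pools.

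Hoxb7, the gene of the ureteric epithelium named above, behaved alike on both arrays. At chr11:96151211-96151270 it gave 1250 and 1020 in the female and 1340 and 1090 in the male pools, Pparg-cKO first. Its log2 ratio was 0.28 on each array (n = 2, limma adjusted p = 0.563), 1.21-fold and 1.22-fold. Hoxb2 and Hoxb4, the remaining 2 tested genes of the cluster, had opposite signs, with -0.10 in female and 0.61 in male pools for Hoxb2 and -0.14 and 0.24 for Hoxb4.

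**Figure D3:**
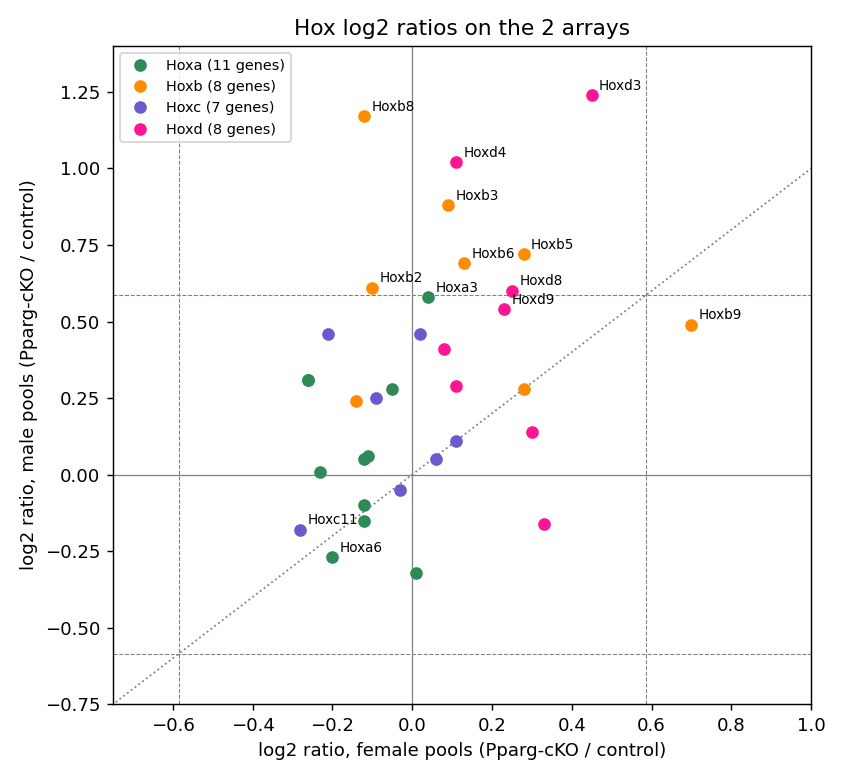
Log2 ratio of Pparg-cKO over control on the female array (horizontal axis) against that on the male array (vertical axis) for the 34 tested Hox genes, coloured by cluster, with dashed lines at 1.5-fold and a dotted line where both arrays are equal. Hoxb9 alone lies beyond 1.5-fold on the female array, 8 genes lie beyond it on the male array, and 0 lie beyond it on both.

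The Hoxa cluster lay near 0. Its mean log2 ratios ran from -0.24 for Hoxa6 to 0.31 for Hoxa3. Opposite signs on the 2 arrays were found for 7 of 11 genes, against 10433 of all 22111 genes tested. Hoxa3, paralogue of Hoxb3 and Hoxd3, had log2 ratios of 0.04 in female and 0.58 in male pools, and a second Hoxa3 probe, designed to another transcript, had -0.29 and 0.21. Hoxa6 gave 73.5 and 90.4 in the female and 87.5 and 110 in the male pools, Pparg-cKO first, log2 ratios of -0.20 and -0.27, the lowest mean of the family (n = 2, limma adjusted p = 0.648). Hoxa10 and Hoxa11, genes of kidney and genital duct development, had log2 ratios of -0.12 and -0.15 and of -0.26 and 0.31. Hoxa7 had the same pair of log2 ratios as Hoxa11, -0.26 and 0.31. Hoxa13, the posterior end of the cluster, had 0.01 and -0.32 with 1 probe and -0.18 and -0.28 with the other.

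In the Hoxc cluster Hoxc4 and Hoxc6 had log2 ratios of 0.46 each on the male array and of 0.02 and -0.21 on the female array. Hoxc5 had 0.25 and -0.09, but 1 of its pools on each array was not well above background. Hoxc8, Hoxc9 and Hoxc10 had mean log2 ratios of 0.06, -0.04 and 0.11, with SDs over the arrays of at most 0.01. Hoxc11 gave 33.4 and 46.7 in the female and 45.8 and 54.0 in the male pools, with log2 ratios of -0.28 and -0.18 (n = 2, limma adjusted p = 0.659), and was second to Hoxa6 among the lowest means.

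The order of the arrays was also read by paralogue number, and over all genes tested 55.0% had a higher log2 ratio on the male than on the female array. For the 6 tested genes of groups 1 to 3 the median log2 ratio was -0.00 in female and 0.60 in male pools, and all 6 were above their female ratio on the male array. The 15 genes of groups 4 to 8 had -0.09 and 0.31, with 13 of 15 above their female ratio. The 13 genes of groups 9 to 13 had 0.08 and 0.11, with 7 of 13 above it, a share close to that of all genes, and the difference between these groups was not tested. Within paralogue groups the Hoxd member often had the highest mean log2 ratio, with 0.84 for Hoxd3 against 0.48 for Hoxb3 and 0.31 for Hoxa3, and with 0.56 for Hoxd4 against 0.24 for Hoxc4, 0.05 for Hoxb4 and -0.11 for Hoxa4. In groups 8 and 9 it did not, with 0.52 for Hoxb8 against 0.42 for Hoxd8, and with 0.59 for Hoxb9, 0.38 for Hoxd9, -0.03 for Hoxa9 and -0.04 for Hoxc9. These orders are descriptions, since the SD over the 2 arrays of many of these genes is as large as the gaps between them.

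The arrays, which hold different pools, and the spots of a probe, which repeat the same pools, gave 2 kinds of spread. Over the 34 genes the SD of the log2 ratio among the spots of a probe was between 0.03 and 0.22, with a median of 0.11. The median SD over the 2 arrays was 0.23 for the Hox genes and 0.12 for all genes tested. Across the 34 Hox genes, which share 2 arrays and are not independent, the female and male log2 ratios correlated with a Pearson's r of 0.36 and a Spearman's rho of 0.37, against a Pearson's r of 0.45 over all genes tested. The male log2 ratio also followed brightness among the Hox genes, with a Spearman correlation of 0.66 with the mean log2 intensity of the probe (34 genes) against 0.01 over all genes tested, and the female log2 ratio had 0.20. The 24 Hox genes bright enough for the fold rule had a median male log2 ratio of 0.46, and the 10 dimmer genes -0.02, while their female medians were 0.03 and -0.04. Without an offset in the background correction, which draws dim ratios towards 0, the correlation was 0.58 for the male and 0.24 for the female ratio, and with the scanner's processed signals it was 0.46 and 0.34, and the part of brightness in the ratios was not tested.

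Genes that work with the Hox genes gave 0 limma calls and 0 fold-rule calls in each of 7 lists, against 0.796% and 1.17% of all genes, shares at which lists of this size hold few calls or none. Among the 9 cofactors of the TALE homeobox class, which bind DNA together with Hox proteins, the median log2 ratio was 0.05, and Pbx3 had the largest mean log2 ratio, 0.23 (0.32 and 0.13). Among 15 Polycomb group genes, whose products keep Hox clusters silent, the median was 0.12, with 0.00 in female and 0.23 in male pools. Among 9 Trithorax group genes, which maintain active Hox transcription, the median was 0.13 and Kmt2b had the largest mean, 0.29 (0.03 and 0.54). At an unadjusted p under 0.05, limma listed 0 genes of these 3 lists, against 8.54% of all genes.

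Upstream regulators were similar. Of 15 genes of the retinoic acid pathway, which induces anterior Hox genes, 13 were tested and 2 passed an unadjusted p under 0.05 in limma, against 8.54% of all genes. The median log2 ratio of this list was 0.08, and the receptor gene Rarg had the largest mean, 0.47 (0.18 and 0.75, limma adjusted p = 0.53), while Crabp2, a binding protein for retinoic acid and the other of the 2, was lower with a mean of -0.38 (-0.25 and -0.50, limma adjusted p = 0.45). Among 6 Cdx and ParaHox genes, relatives and regulators of the Hox clusters, 2 were bright enough to be tested, 4 were not above background in any pool, and Gsx1 had the larger mean in size, -0.10; limma listed 0 of them at an unadjusted p under 0.05. Of 11 partners and targets of Hox proteins in kidney formation the median was -0.07, 1 passed an unadjusted p under 0.05 in limma, and Osr1 had the largest mean, 0.43 (0.32 and 0.53, limma adjusted p = 0.349).

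Flanking genes and noncoding RNAs of the clusters did not lean as the Hox genes did in their medians. Of 16 listed, 14 were on the array and 12 were tested, with medians of -0.03 in female and 0.01 in male pools, and 2 passed an unadjusted p under 0.05 in limma, against 8.54% of all genes. Skap1, a flanking gene of the Hoxb cluster, had the largest mean in size, -0.45 (-0.36 and -0.53, limma adjusted p = 0.296). Hoxb5os, an antisense RNA of the Hoxb cluster, gave 173 and 118 in the female and 153 and 123 in the male pools, Pparg-cKO first, a mean log2 ratio of 0.39 beside 0.50 for Hoxb5. Hoxa11os, the antisense RNA of Hoxa11, had -0.28 and -0.06. The difference between these genes and the Hox genes was not tested.

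**Figure D4:**
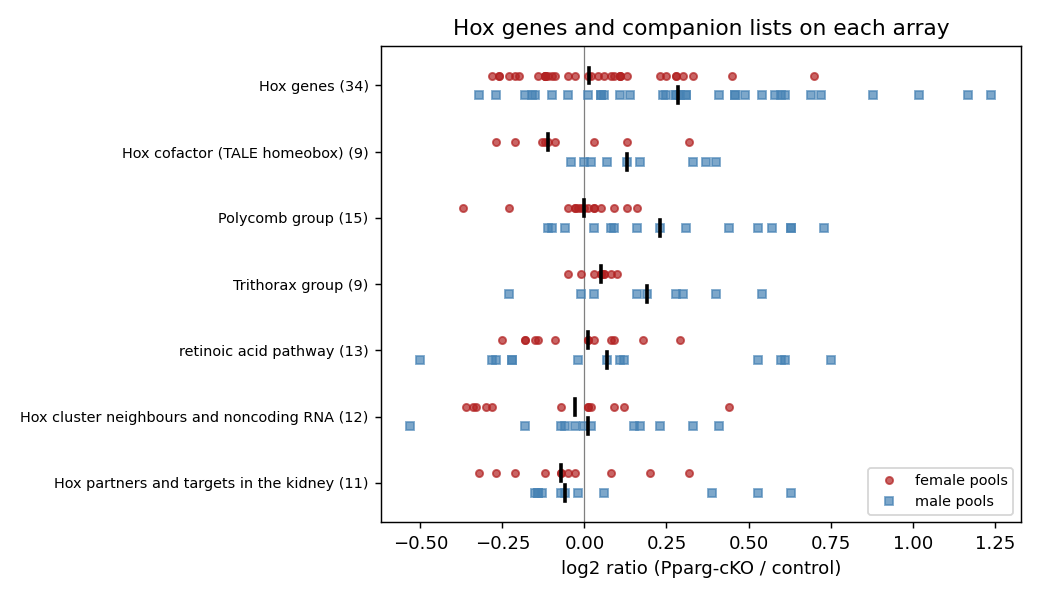
Log2 ratio of Pparg-cKO over control (horizontal axis) of each tested gene of the Hox family and of 6 companion lists (vertical axis, number of tested genes in brackets), with circles for the female pools, squares for the male pools and black bars for the median of each. The Hox medians are 0.02 and 0.29 and those of the Polycomb group 0.00 and 0.23.

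Markers of the labelled tissue were present, with 10 of 10 urothelial and 10 of 10 mesenchymal and smooth muscle genes above background in all pools, against 64.0% of all genes. So were 7 of 7 endothelial, 7 of 7 blood and 7 of 8 nerve genes. Of the skeletal muscle genes 7 of 10 were above background in all pools, near that share of all genes. In bulk RNA, fewer cells of a type and less RNA per cell cannot be told apart, which bears on every Hox ratio whichever cells express the gene. The summed processed signal of the urothelial list was 58500 and 71400 in the female and male Pparg-cKO pools and 89700 and 79200 in the control pools. Uroplakin genes held most of each sum, with Upk3a alone at 31200 and 32500 against 41100 and 36200. Upk1a and Upk1b passed the fold rule as lower. In this list 5 genes were lower on both arrays, against 26.2% of all genes. Another 3, namely Cdh1, Epcam and Foxa1, were higher on both, against 26.6%. All 10 urothelial genes had a higher log2 ratio on the male than on the female array, among them Cdh1 with 0.07 and 1.10 and Foxa1 with 0.16 and 1.06, the same order of arrays as in 26 of the 34 Hox genes and in 55.0% of all genes tested. The mesenchymal list summed to 109000 and 107000 in Pparg-cKO and 120000 and 122000 in control pools and had a median log2 ratio of -0.14, with 0 calls by limma or the fold rule and 0 genes at an unadjusted p under 0.05 in limma.

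Markers of neighbouring tissues were also examined. The skeletal muscle list summed to 7460 and 6480 in the Pparg-cKO pools and to 8070 and 9310 in the control pools, with Tnnc2 past the fold rule as lower, and the list of nephron progenitors and kidney tubules to 781 and 671 against 900 and 961. In the latter list 6 of 10 genes were above background in all pools, near the 64.0% of all genes. Slc12a1, Umod and Slc12a3 were above background in no pool, and Crym and Lrp2 had the lowest mean log2 ratios, -0.49 and -0.51. The collecting duct list summed to 724 and 827 against 245 and 271, of which Fxyd4 passed limma with a mean log2 ratio of 2.38 (n = 2, adjusted p = 0.00547). Without Fxyd4 the other 6 genes summed to 188 and 231 against 168 and 163, and their mean log2 ratios ran from -0.21 for Scnn1g to 0.54 for Scnn1b among the 5 tested. At an unadjusted p under 0.05 limma listed 6 of 10 urothelial, 5 of 10 skeletal muscle, 2 of 7 nephron and tubule and 2 of 6 collecting duct genes tested, against 8.54% of all genes. Of the 6 urothelial genes listed, 2 were higher in the Pparg-cKO pools and the rest lower. In the skeletal muscle list 8 of the 10 genes were lower on both arrays, against 26.2%. The nerve, endothelial, blood, adipose and gonad lists gave 0 calls by limma or the fold rule, with 1, 1, 0, 1 and 0 genes at an unadjusted p under 0.05 in limma and median log2 ratios of -0.08, 0.12, 0.15, -0.12 and 0.01. The part of any of these tissues in the Hox ratios was not tested.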

How the data were processed

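RNA of 4 pools of E18.5 ureters was compared on 2 two-colour Agilent arrays. Per the file headers, the scanner files (Feature Extraction 10.7.3.1, per the submitters' processing notes) held spot intensity on a linear scale, namely mean signal, median background and a processed signal corrected for background and dye. The authors' deposited value table held a score, the signed fold change of Pparg-cKO over control per probe, used for direction and as an alternative. The files also held a log10 ratio of red over green per the file headers, not used here. Mean signal and background were corrected in limma 3.58.1 (R 4.3.3) by normexp with an offset of 50, then each array was normalised by loess in which control spots had weight 0. Outlier spots (2.87% and 3.24%) were removed, 0 spots were saturated, the 4 spots of a probe were averaged, and the brightest probe stood for a gene. limma tested the mean of 2 turned log2 ratios against 0, two-sided, and p-values were adjusted by Benjamini-Hochberg over the 22111 genes whose probe had most spots well above background in 1 channel or both of each array. The residual had 1 degree of freedom and the prior 4.09. The number of arrays limits the precision, and p-values measure only the spread between the female and the male pair. Per the labels, red and green dyes were exchanged. Tested on simulated data, the fit recovered most changed genes when gene variances were drawn from limma's own fitted prior and none when they were the observed variances between the arrays, so its power for these genes is not known.

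The members and gene lists were chosen with earlier results of these data known. Values in every pool were given for members past a threshold, the 8 with the largest absolute mean log2 ratio and those above background in some pools only. Further Hox genes were named with values after those were seen. Of the companion lists, members past a threshold were named, or otherwise the member with the largest absolute mean log2 ratio. No member was named of the Polycomb, mesenchymal, nerve, endothelial, blood, adipose and gonad lists. Further list genes were named after their values were seen, among them Hoxb5os, Hoxa11os, Cdh1, Epcam, Foxa1, Upk3a, Crabp2, Crym, Scnn1b and Scnn1g. Some genes and sequences are not reported here. Gene names are those of the array, except Lnpk, listed there as Lnp. Probe positions are on mm9 and promoters on GRCm38.p6. The alternatives were other background corrections and normalisations, other filters, the deposited table and each array alone.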

Additional observations from a re-analysis of the deposited data

How the results depend on the processing

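The count of Hox genes with a limma adjusted p under 0.05 was 0 with loess and an offset, and it was 1, Hoxd3, with normexp without an offset, where 570 genes in all were called instead of 176. It was 0 with the scanner's processed signals, median centring, the median over all probes, no filter on dim probes, outlier spots kept and the deposited table, in which 0 genes in all were called and 5 Hox genes had an unadjusted p under 0.05 in limma. The count by the fold rule was 0, and it was 1, Hoxb9, with median centring. With 1 array left out it ranged from 1 to 8, the 8 coming from the male array. It was 0 with a 2-fold threshold and with no intensity threshold. The number of Hox genes with both arrays on the same side was 21 of 34 and ranged from 18 to 23 over the alternatives with 34 genes tested, and was 24 of 39 with no filter on dim probes. The median log2 ratio was 0.12 and ranged from 0.11 to 0.22 over the alternatives with both arrays, and was 0.29 without the female array and 0.02 without the male array. The number of Hox genes above background in all pools was 32, and 24 when every pool had to reach 100 signal units. Over the 7 alternatives with both arrays, 30 of 34 mean log2 ratios kept their sign, and 4, all within 0.04 of 0 and among them Hoxa9, Hoxa11 and Hoxc9, changed it in at least 1. No paired analysis was possible because each array already holds a pair and there is 1 group of ratios. Ratios of dim genes are drawn towards 0 by the offset, and genes not well above background have no usable ratio.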
